A study of Mus musculus with 7 samples.

Results

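Interferon-stimulated genes were followed as 1 module across the cell types of the mouse heart. The module is a list of 39 gene symbols, and 37 of them were found among the 32285 genes counted; Mx1 and Mx2 were not analysed here. By role, the 39 symbols comprise 17 antiviral effectors, 7 regulators and protein modifiers, 4 nucleic acid sensors, 4 members of the PYHIN (Ifi200) family, 3 transcription factors, 2 chemokines and 2 guanylate-binding proteins. For every gene, unique molecular identifiers (UMIs, 1 per captured transcript) were summed over the cells of a class in a library and given as CPM, the count scaled to a total of 1000000 UMIs for that class and library.

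Type I interferons bind the receptor made of IFNAR1 and IFNAR2, which signals through the kinases JAK1 and TYK2 to the interferon-stimulated response element (ISRE) in promoters. Interferon gamma binds IFNGR1 and IFNGR2, and its signal reaches promoters at the gamma-activated site (GAS). In the infarcted heart, macrophages and other phagocytes that take up DNA of dying cells are a known source of type I interferon, and interferon-responsive subsets of monocytes, neutrophils and macrophages are known cell states.

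Data came from 7 single-cell libraries of perfused, digested hearts in 6 groups: wild-type C57BL6/J mice at postnatal day 1 (P1) with sham surgery or with myocardial infarction (MI), wild-type mice at 8 weeks with sham surgery or MI, and Mertk knockout (KO) mice at P1 with sham surgery or MI. Mertk encodes a receptor by which macrophages engulf dying cells. Only wild-type P1 MI had 2 libraries, called replicates 1 and 2; nothing in the labels says that they came from separate hearts, so the p-values rest on how far these 2 samples differ, which may be technical. How many hearts entered a library, the time from surgery to harvest, the sex and the KO allele are not given in the sources used here. CD45+ leukocytes were enriched and mixed at 2 for every CD45- cell, so class sizes say nothing of the tissue. Deposited totals ran from 7707724 UMIs in the 8-week MI library to 130847843 in wild-type P1 MI replicate 2, and 767 to 13306 cells per library were kept. Median UMIs per cell lay between 2142.5 in the 8-week MI library and 11408 in wild-type P1 MI replicate 1, and 129 barcodes occurred in more than 1 library, of 40029 distinct ones. Replicate 2 and the 8-week sham library were counted with Cell Ranger 6.1.0 and the others with 4.0.0. Xist stood at 0 to 0.0368 CPM in both 8-week libraries and at 46.4 to 936 CPM in the P1 libraries. Y-linked Ddx3y was at 0 CPM in the KO sham library and at 14.9 to 83.4 CPM in the other P1 libraries. Sex therefore cannot be told apart from age, nor at P1 from surgery or genotype. Mertk UMIs were counted in macrophages of both KO libraries (44.2 CPM in sham and 21.3 CPM in MI, against 52.3 CPM in wild-type P1 sham), and since 3′ tags can lie outside the deleted part, they do not check the knockout.

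Cells were assigned by markers to 7 classes: macrophages, monocytes, neutrophils, T cells, B cells, fibroblasts and endothelium. A cell needed UMIs of at least 3 of a class's 12 markers and 2 more than for any other class. Of a library's cells, 6.83 to 17.1% met no gate. These include the ambiguous cells, 3.52 to 15.4% of a library, which had enough markers but not the margin over another class. Further classes with their own markers, among them NK cells and dendritic cells, were gated likewise and set aside (10 to 1149 cells per library). All 12 own markers had UMIs in every one of the 7 classes and library used. Classes with fewer than 30 cells in a library were not used, which removed monocytes and neutrophils of wild-type P1 MI replicate 1 and neutrophils and T cells of the 8-week MI library.

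RefSeq promoter windows (250 bases before and 50 after the start, build GRCm38.p6) matched 29 of the 37 genes. An ISRE, written GAAANNGAAA and searched on both strands, was present in 19 of the 29 windows (65.5%), against 1079 of 27025 windows of all genes (3.99%). A GAS, written TTCNNNGAA, was present in 3 of 29 (10.3%), against 9.55% of all windows. The stretches below come from genes that the results turn on; each holds 60 bases upstream of the start, on the gene's strand, and capitals mark the ISRE matches, which overlap where a run exceeds 10 bases. GAAA repeats read on this strand in Isg15, Bst2, Cxcl10 and Oas1a and TTTC repeats (the opposite strand) in the others.
Isg15 (chr4:156200850-156200909, minus strand): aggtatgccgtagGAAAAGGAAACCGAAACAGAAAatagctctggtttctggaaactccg
Ifit1 (chr19:34640779-34640838, plus strand): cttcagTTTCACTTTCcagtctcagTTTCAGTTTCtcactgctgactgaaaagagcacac
Ifit3 (chr19:34583382-34583441, plus strand): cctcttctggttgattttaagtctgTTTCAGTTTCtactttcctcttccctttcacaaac
Rsad2 (chr12:26456538-26456597, minus strand): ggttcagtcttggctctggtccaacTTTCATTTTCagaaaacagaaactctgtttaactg
Oas1a (chr5:120907526-120907585, minus strand): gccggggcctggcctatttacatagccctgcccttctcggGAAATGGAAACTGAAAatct
Bst2 (chr8:71537562-71537621, minus strand): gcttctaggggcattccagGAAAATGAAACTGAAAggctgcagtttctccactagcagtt
Gbp2 (chr3:142620579-142620638, plus strand): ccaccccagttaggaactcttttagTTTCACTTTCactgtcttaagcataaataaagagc
Gbp3 (chr3:142559980-142560039, plus strand): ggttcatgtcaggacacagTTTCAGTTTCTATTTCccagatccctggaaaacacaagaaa
Cxcl10 (chr5:92349068-92349127, minus strand): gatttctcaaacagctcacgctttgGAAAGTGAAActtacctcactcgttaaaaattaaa

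Summed over the 37 genes, macrophages carried nearly the same level in every library, 1731 to 2244 CPM. The other classes spread more widely: 387 to 3014 CPM in fibroblasts, 415 to 3995 in neutrophils, 1414 to 4375 in monocytes, 1088 to 4221 in endothelium, 686 to 2385 in T cells and 574 to 1419 in B cells. In each of these 6 classes the highest sum was that of the 8-week sham library, and in macrophages it was that of the 8-week MI library. Fibroblasts of wild-type P1 sham had the lowest sum of any class and library (387 CPM). Ifi27l2a, an interferon-induced mitochondrial membrane protein, supplied 16.01 to 43.99% of the summed UMIs in macrophages. Without it and Bst2, the macrophage sums were 828 to 1349 CPM, and the highest library changed in some classes. In macrophages it was then KO sham (1349 CPM, against 1300 in 8-week MI). In fibroblasts it was 8-week MI (1291 CPM, against 1122 in 8-week sham). In T cells it was KO MI (989 CPM, against 970 in 8-week sham), and in the other classes 8-week sham stayed highest.

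**Figure D1:**
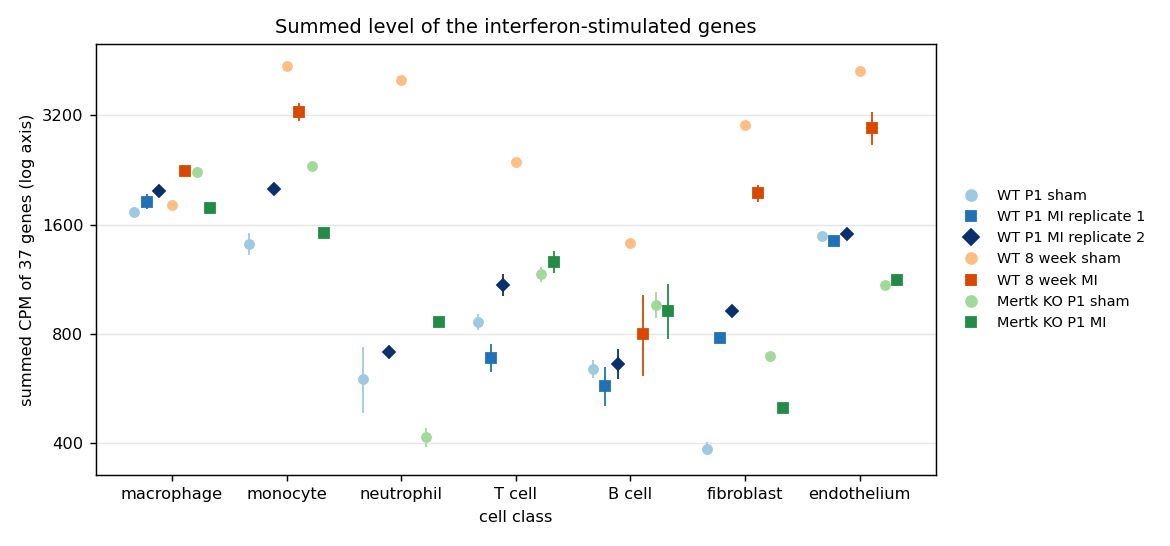
Summed level of the 37 interferon-stimulated genes (CPM, y axis) in each of the 7 classes (x axis), 1 point per library; bars on the points are exact 95% intervals for counting error. Macrophage points lie within 1731 to 2244 CPM, whereas fibroblast points run from 387 to 3014 CPM.

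Each comparison was then summarised by the median log2 ratio of CPM over the 37 genes (prior of 0.5 counts), beside the median over all genes of the class. TMM scaling in place of totals shifts all genes of a class by −0.37 to 0.36 on the log2 scale, depending on class and comparison. For MI against sham at P1 the median was highest in fibroblasts, where it was 1.61 against −0.02 for all genes, and 27 of 37 genes were at least 2-fold higher in MI, against a background of 10.0% of all genes. In macrophages the median was 0.23 (all genes −0.13) with 7 of 37 at least 2-fold higher (background 4.90%), in T cells 0.00, in B cells 0.00 and in endothelium −0.06. Monocytes had a median of 0.80 with 16 of 37 genes at least 2-fold higher (background 11.8%); 8 genes were at 0 in one of the libraries, and with these set to the bound that 3 counts give the median was 0.48. For neutrophils the figures were 0.93 and 17 of 37 (background 24.8%), but 19 genes were at 0 in one of the libraries, since wild-type P1 sham held 43 neutrophils, and the median with bounds was 0.00.

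**Figure D2:**
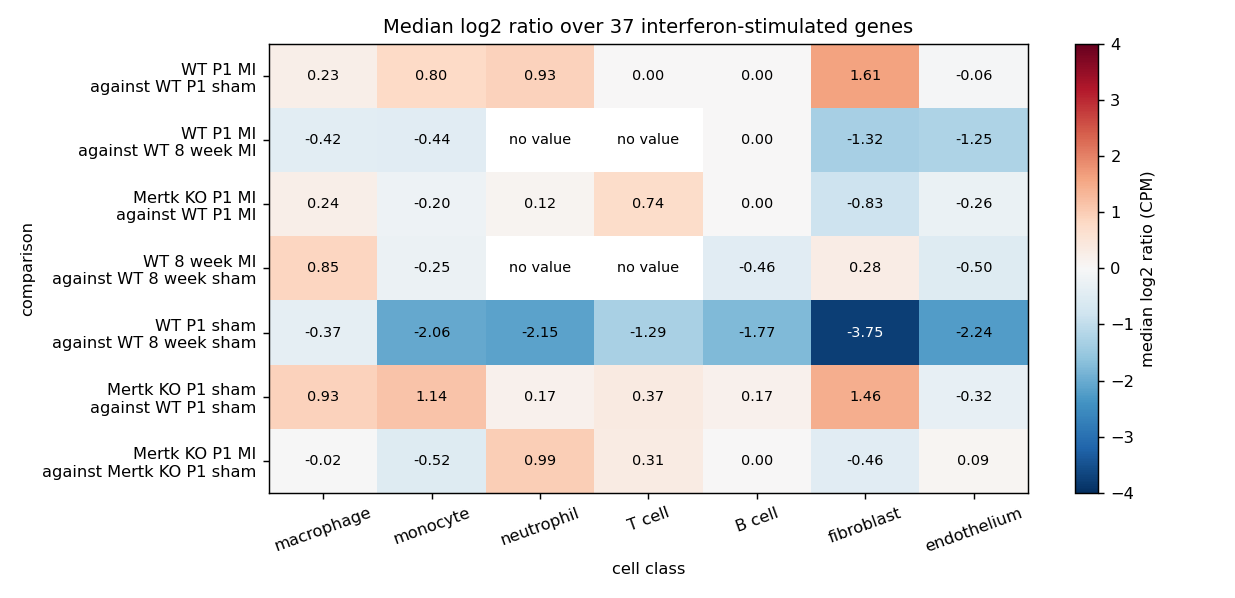
Median log2 ratio of CPM over the 37 genes (colour and printed value) for each comparison (rows) and class (columns). Entries marked no value have a group without a library of 30 cells. The wild-type P1 sham against 8-week sham row is negative in all 7 classes, and the P1 MI against P1 sham row is highest in fibroblasts.

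Fibroblasts held more interferon-stimulated transcripts in P1 MI than in P1 sham. Isg15, a ubiquitin-like modifier, stood at 3.80 CPM in sham and at 49.2 and 37.7 CPM in the MI replicates. In replicate 1, however, most Isg15 UMIs came from a single cell of 181797 UMIs, as given below. Both MI libraries were above sham, with a log2 fold change of 3.50 ± 0.44 (SE; adjusted p = 2.81e-06, quasi-likelihood test of edgeR, Benjamini-Hochberg adjusted over all genes of the class). Bst2, which tethers budding virions to the cell, rose from 20.7 to 56.7 and 71.6 CPM (log2 fold change 1.65 ± 0.40). Gbp2, a guanylate-binding protein that attacks pathogen vacuoles, rose from 2.07 to 32.9 and 12.7 CPM, by 3.38 ± 0.53. Cxcl10, which recruits CXCR3+ lymphocytes, rose from 23.3 to 83.8 and 68.3 CPM, by 1.70 ± 0.36.

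In all, 17 of 36 tested genes were called higher and 0 lower in these fibroblasts (adjusted p under 0.05 and at least 2-fold, edgeR), where 2.11% of all genes were called higher. By role, the called genes were 8 antiviral effectors (Isg15, Bst2, Ifit1, Ifit3, Oasl1, Oasl2, Rsad2 and Ifi44), the transcription factor Irf7, the sensor Zbp1, the PYHIN genes Ifi203 and Ifi204, the regulators Rtp4 and Trim30a, Gbp2 and Gbp3, and Cxcl10. Ifit1, which binds viral RNA, had 3 UMIs (0.519 CPM) in sham and 6.39 and 6.54 CPM in MI, a log2 ratio of 3.41 with a counting interval of 2.09 to 5.94. Rsad2 (viperin, which makes a chain-terminating nucleotide) was at 0.519, 4.26 and 6.76 CPM in the same order, and Irf7, which amplifies interferon transcription, at 3.46, 11.6 and 11.01 CPM. Many of these levels are low: Ifi44 had 0 UMIs in sham and was at least 7.54-fold higher in MI when sham is set to 3 counts, and Oasl1 likewise at least 6.48-fold.

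Not every gene moved. Slfn5, a Schlafen family member, was at 104 CPM in sham fibroblasts and at 103 and 93.0 CPM in MI, and Stat2 was at 14.0, 15.5 and 9.16 CPM. Ifi27l2a was at 118 CPM in sham, 136 in replicate 1 and 426 in replicate 2, so its replicates differed more than replicate 1 differed from sham. Oas2, which makes the 2′-5′ oligoadenylate that activates RNase L, had at most 0.581 CPM, and Cxcl9 at most 1.84 CPM, in these 3 libraries. Among the fibroblast replicates, 12 of 37 genes lay at least 2-fold apart; Ifi204 (32.9 and 7.71 CPM) and Oasl2 (37.7 and 12.01 CPM) were among those higher in replicate 1.

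**Figure D3:**
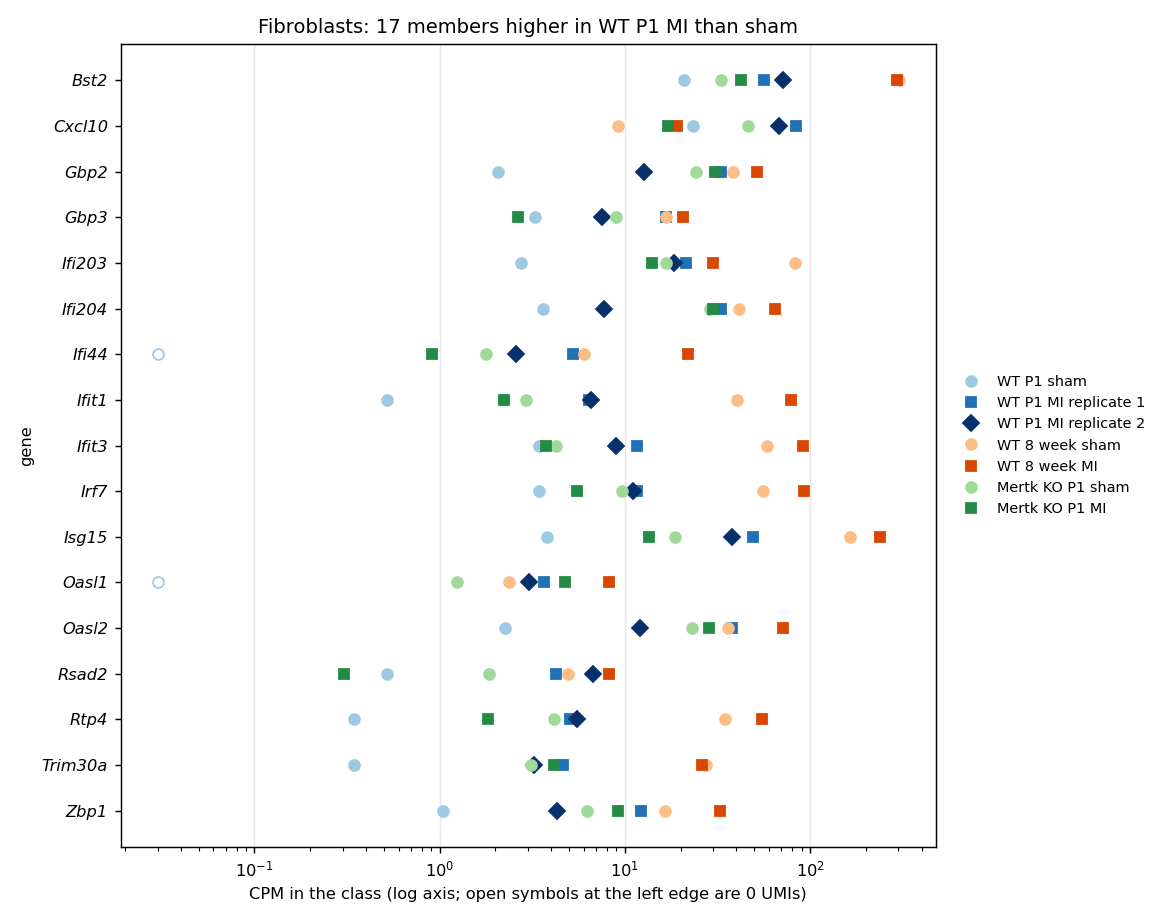
CPM (log axis) of fibroblast genes of the module in the 7 libraries, 1 point per library. For Isg15, Bst2 and Gbp2, both wild-type P1 MI points lie above the wild-type P1 sham point and below both 8-week points.

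How many fibroblast genes were called depended on the processing: 24 of 36 had an unadjusted edgeR p under 0.05, DESeq2 called 5 (Bst2, Gbp2, Ifi203, Isg15, Oasl2), and edgeR called 5 without doublet removal, 6 without TMM scaling and 9 with a stricter gate. Leaving out the cell richest in module UMIs from each library left 12 calls, and each MI replicate alone had 25 (replicate 1) or 23 (replicate 2) of 37 genes at least 2-fold above sham. The 12 macrophage markers stood at 16.1 CPM in sham fibroblasts and 18.4 and 41.9 CPM in MI, and their part was not tested. The sham library is a control shared with another comparison: KO sham fibroblasts also had a median of 1.46 over wild-type P1 sham, with 22 of 37 at least 2-fold higher (background 12.1%).

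In the other classes the P1 MI comparison gave few calls. By edgeR, 0 genes of the module were called in macrophages (36 tested, 7 with an unadjusted p under 0.05, all higher; DESeq2 0; background 0.131% called higher). Macrophage Isg15 was at 11.2 CPM in sham and 30.9 and 36.5 CPM in MI, both above sham, and Irf7 at 9.07, 13.2 and 22.4 CPM (adjusted p = 0.280 and 1.00, edgeR). For Bst2 the sham level (198 CPM) lay between those of the MI replicates (184 and 254 CPM), and for Ifi204 it lay above both (131 against 129 and 94.4 CPM). Endothelium had 0 of 36 genes called (2 with an unadjusted p under 0.05; DESeq2 0; background 0.284%) and B cells 0 of 15 (1 with an unadjusted p under 0.05; DESeq2 0; background 0.855%). Slfn5 in endothelium was 496 CPM in sham and 473 and 339 CPM in MI.

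T cells had 1 of 29 genes called, Cxcl10 (background 1.14% called higher). It rose from 1.75 CPM in sham to 116 and 199 CPM in MI, a log2 fold change of 6.51 ± 0.83 and a log2 ratio with a counting interval of 4.93 to 8.78, since sham had 3 UMIs (adjusted p = 6.56e-12, edgeR's quasi-likelihood test). In replicate 1, however, 89.4% of these UMIs (76 of 85) came from 1 cell, and only 4 cells had any.

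Infarcted hearts at 8 weeks carried higher levels than at P1 in 3 of the 4 classes tested. In macrophages, 12 of 36 genes were called lower in P1 MI than in 8-week MI and 0 higher (background 4.43% of all genes called lower); 18 had an unadjusted p under 0.05. The 12 were Ifit1, Ifit3, Ifit3b, Isg15, Rsad2, Oas1a, Oas3, Oasl2, Irf7, Usp18, Zbp1 and Rtp4. Oas1a, an oligoadenylate synthetase, was at 14.3 and 11.8 CPM in the P1 MI replicates and at 106 CPM in 8-week MI (log2 fold change −3.42 ± 0.41, adjusted p = 1.19e-04, edgeR). Ifit1 was at 3.31 and 3.76 against 54.9 CPM, Irf7 at 13.2 and 22.4 against 124 CPM, and Usp18, the protease that removes ISG15 and damps the receptor, at 0 and 4.27 against 28.2 CPM. In each of these, both P1 libraries lay below the 8-week library.

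By role, antiviral effectors had a median log2 ratio of −2.22 (11 of 15 at least 2-fold lower, background 8.51%) and the 4 PYHIN genes a median of 0.67, with Ifi207 at 387 and 256 CPM in P1 MI against 84.3 CPM in 8-week MI. The difference between the roles was not tested. Ifi27l2a (478 and 711 against 653 CPM), Stat2 (12.1 and 8.88 against 10.6 CPM) and Slfn5 (45.3 and 39.4 against 42.0 CPM) lay close together. Over all 37 genes the median was −0.42, while the median over all genes was 0.35. Without replicate 1 it was −0.84. Among macrophages with at least 2 of the resident markers Folr2, Cbr2, Mrc1 and Lyve1, 10 of the 12 calls remained, and 10 also in macrophages with fewer; DESeq2 called 0 lower and 1 gene in all. Macrophages of the 8-week MI library were shallow (the library's median was 2142.5 UMIs per cell), and the part of depth was not tested.

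**Figure D4:**
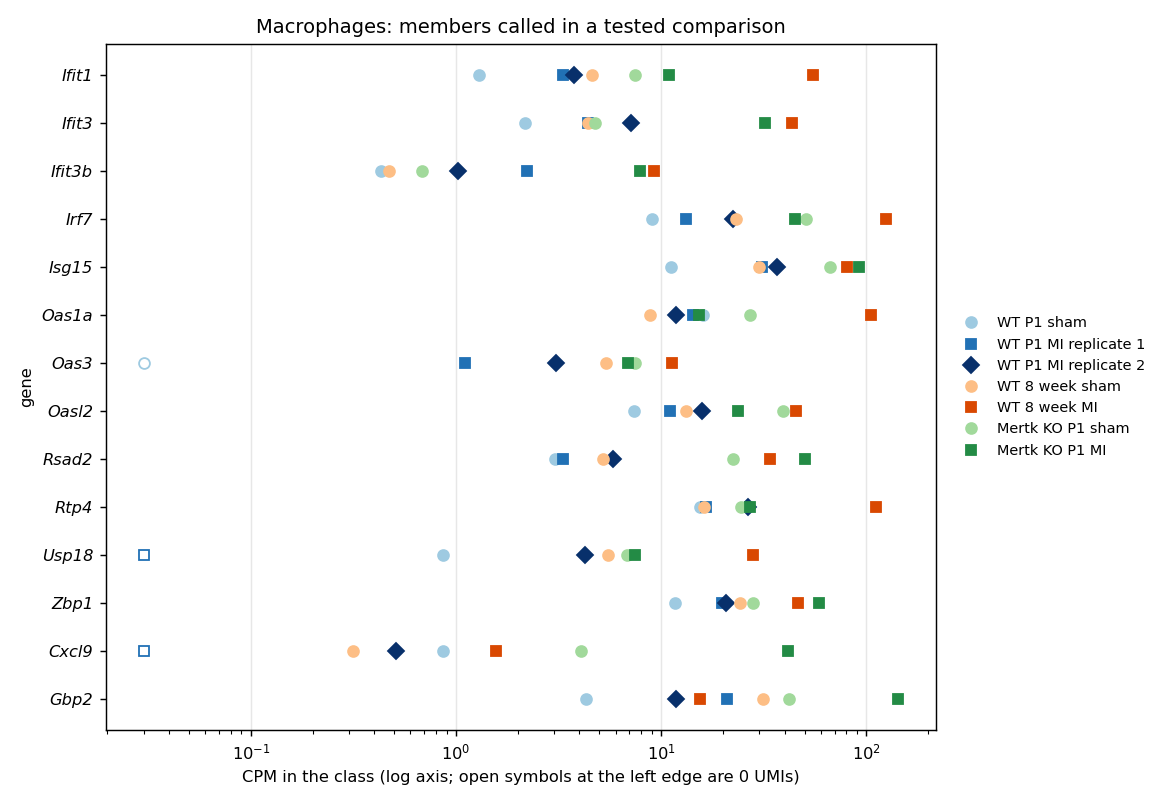
CPM (log axis) of macrophage genes of the module in the 7 libraries, 1 point per library. Oas1a, Ifit1, Irf7 and Usp18 are highest in the 8-week MI library, and Gbp2 and Cxcl9 in the KO MI library.

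In fibroblasts, 17 of 36 genes were lower in P1 MI than in 8-week MI and 2 were higher (background 6.41% lower and 9.92% higher). Isg15 was at 238.1 CPM in 8-week MI (log2 fold change −2.40 ± 0.33 for P1 against 8 weeks), Irf7 at 93.1, Bst2 at 296 and Rtp4, a chaperone of G protein-coupled receptors, at 54.7 CPM against 5.03 and 5.53 CPM. The others called lower were Ifit1, Ifit3, Ifit3b, Ifi44, Oas1a, Oasl2, Usp18, Zbp1, Xaf1, Trim30a, Ifi204, Ifi207 and Ifi211. Cxcl10 and Slfn5 went the other way: Cxcl10 was at 83.8 and 68.3 CPM in P1 MI and 19.2 CPM in 8-week MI (2.05 ± 0.45). DESeq2 called 8 of the 17 lower. Lyz2, a myeloid gene, stood at 687 CPM in 8-week MI fibroblasts and 769 CPM in 8-week MI endothelium; its part in these levels was not tested.

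Endothelium had 10 of 36 genes lower and 1, Cxcl10, higher in P1 MI (background 1.57% lower and 2.42% higher). Cxcl10 was at 42.0 and 148 CPM in the P1 MI replicates and 8.36 CPM in 8-week MI. The 10 were Ifit3, Ifit3b, Ifi44, Oas1a, Oas2, Irf7, Zbp1, Gbp2, Ifi204 and Ifi27l2a, with Irf7 at 12.3 and 16.6 against 226 CPM. The 8-week MI library held only 55 endothelial cells, and DESeq2 called 0 of 36 in either direction (17 had an unadjusted edgeR p under 0.05). B cells had 0 of 15 genes called (2 with an unadjusted p under 0.05; DESeq2 0).

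Sham hearts of the 2 ages were 1 library each, which allowed no test. P1 sham lay below 8-week sham with a median log2 ratio of −3.75 in fibroblasts, −2.24 in endothelium, −2.15 in neutrophils, −2.06 in monocytes, −1.77 in B cells, −1.29 in T cells and −0.37 in macrophages. Genes at least 2-fold lower numbered 31 of 37 in fibroblasts (background 15.7% of all genes), 32 in endothelium (12.5%), 28 in neutrophils (23.5%), 26 in monocytes (14.6%), 28 in B cells (5.59%), 23 in T cells (9.35%) and 9 in macrophages (10.9%). With genes at 0 set to the bound that 3 counts give, the medians were −3.28 in fibroblasts, −2.12 in endothelium, −0.81 in neutrophils, −1.36 in monocytes, −1.34 in B cells and −1.06 in T cells.

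Neutrophils showed this for Isg15, at 19.0 (3.91 to 55.5) CPM in P1 sham and 955 (910.1 to 1002) CPM in 8-week sham (exact 95% intervals, counting error only). Rsad2 was at 12.6 and 236 CPM, Oasl2 at 12.6 and 253 CPM, and Rtp4 at 19.0 and 272 CPM. In the 43 neutrophils of P1 sham, 3 UMIs amount to 19.0 CPM. The P1 sham levels of these genes and of Isg15 therefore rest on at most 3 UMIs each. In endothelium Ifit2 was at 6.47 and 84.9 CPM, Ifit3 at 2.09 and 76.8 CPM and Ifi44 at 5.52 and 56.7 CPM. In fibroblasts Ifi207 was at 0.692 and 67.9 CPM, and Ifi203 at 2.77 and 82.6 CPM. Monocyte Ifi27l2a was at 382 and 1716 CPM. In macrophages 2 PYHIN genes were higher at P1: Ifi207 was at 447 CPM in P1 sham and 89.4 CPM in 8-week sham, and Ifi204 at 131 and 79.5 CPM.

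At 8 weeks, MI against sham was also 1 library against 1. Macrophages had the highest median of the 5 classes compared, 0.85 against −0.34 for all genes, and 17 of 37 were at least 2-fold higher in MI (background 9.20%). Oas1a went from 8.85 (6.68 to 11.5) to 106 (97.2 to 115) CPM and Rtp4 from 16.1 to 111 CPM, whereas Gbp3 went from 51.0 to 10.4 CPM. The medians were 0.28 in fibroblasts (all genes −0.08), −0.25 in monocytes (−0.26), −0.46 in B cells (−0.22) and −0.50 in endothelium (−0.19). With genes at 0 set to the bound that 3 counts give, the median was −0.06 in monocytes and −0.28 in endothelium. In B cells, where 18 of 37 genes were at 0 in one of the libraries, it was 0.00.

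The difference between the responses to MI at the 2 ages was tested as an interaction. In fibroblasts the log2 fold change of MI was called higher at P1 than at 8 weeks for 10 of 36 genes and lower for 0 (background 4.28% of all genes higher). The 10 were Ifi207, Ifi203, Gbp2, Isg15, Oasl2, Trim30a, Ifi27l2a, Rtp4, Parp14 and Ifit1. Such a difference can also come from a fall at 8 weeks. Ifi27l2a supplied 52.8% of the summed 3014 CPM in 8-week sham fibroblasts and 18.7% of 1950 CPM in 8-week MI. For Isg15, where the sham levels were 3.80 CPM at P1 and 164 CPM at 8 weeks, the difference was 3.12 ± 0.58 (adjusted p = 9.64e-04, edgeR). In macrophages only Oas1a was called, −4.06 ± 0.67 (adjusted p = 0.00576, edgeR; background 0.477% of genes lower), against 0.407 for Ifit1. Endothelium had 0 of 36 called (9 with an unadjusted p under 0.05; DESeq2 0) and B cells 0 of 15 (3; DESeq2 0). Of the 10 fibroblast genes, 2 were called with DESeq2, without TMM scaling or without doublet removal, and 3 with a stricter gate.

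Loss of Mertk was compared after MI at P1. In macrophages 4 of 36 genes were called higher in KO MI than in wild-type P1 MI and 0 lower (background 0.299% higher), and 13 of 37 were at least 2-fold higher (background 4.61%). Gbp2 was at 21.0 and 11.8 CPM in wild-type MI and 143 CPM in KO MI (log2 fold change 3.38 ± 0.43, adjusted p = 0.00136, edgeR). Cxcl9, a chemokine induced mainly by interferon gamma, was at 0 and 0.512 CPM in wild-type MI and 41.6 CPM in KO MI (log2 ratio 5.78, counting interval 4.95 to 8.86), Rsad2 at 3.31, 5.80 and 50.02 CPM, and Ifit3 at 4.41, 7.17 and 32.2 CPM. These levels rest on few cells: 1 macrophage of the KO MI library held 83.1% of the Ifit3 UMIs and 46.5% of the Rsad2 UMIs, and another held 86.9% of the Cxcl9 UMIs, which were found in 2 cells. Without the cell richest in module UMIs of each library, Cxcl9, Gbp2 and Rsad2 were called and Ifit3 was not. That setting left out 1 cell per library, and most Cxcl9 UMIs lay in a different cell from most Ifit3 UMIs. It therefore cannot check both genes, and the Cxcl9 call rests on 2 cells. DESeq2 called 0 of 36 (10 had an unadjusted edgeR p under 0.05). The 12 neutrophil markers stood at 1906 CPM in KO MI macrophages and at 67.3 and 882 CPM in the wild-type MI replicates, and their part was not tested.

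Gbp2 was also high in KO monocytes (199 CPM in sham and 200.3 CPM in MI against 3.76 CPM in wild-type P1 sham and 24.4 CPM in wild-type P1 MI replicate 2) and in KO MI neutrophils (186 CPM against 16.9 CPM in replicate 2). In these 2 classes only 1 wild-type MI library had 30 cells, so neither was tested. For KO MI against that library the median over the module was −0.20 in monocytes and 0.12 in neutrophils (all genes −0.04 in both). T cells had 1 gene called higher, Gbp3 (1.37 and 1.37 CPM in wild-type MI, 30.6 CPM in KO MI, a log2 ratio of 3.90 with a counting interval of 2.45 to 7.62; background 0.219%), and 16 of 37 at least 2-fold higher (background 9.39%). Endothelium had Ifi204 higher and Xaf1, an inhibitor of a caspase inhibitor, lower (background 2.92% and 1.32%), and B cells 0 of 15 (1 with an unadjusted p under 0.05; DESeq2 0).

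Fibroblasts went the other way, with 9 of 36 genes called lower in KO MI than in wild-type P1 MI (background 4.47%) and 0 higher. These were Isg15, Ifit1, Ifit2, Ifit3, Rsad2, Oas1a, Xaf1, Gbp3 and Cxcl10. Isg15 was at 13.5 CPM in KO MI, below both wild-type MI replicates (log2 fold change −1.49 ± 0.36), and at 18.6 CPM in KO sham. Cxcl10 was at 17.1 CPM in KO MI and 46.4 CPM in KO sham, Gbp3 at 2.64 and 8.94 CPM. The count was 1 with DESeq2, 4 without doublet removal or with a stricter gate, 5 without TMM scaling and 6 without the richest cells. Gbp2 (30.9 CPM) and Oasl2 (28.3 CPM) in KO MI lay between the wild-type MI replicates. KO MI fibroblasts carried 3442 CPM of the 12 neutrophil markers, all of them detected, against 6.19 and 98.3 CPM in the wild-type MI replicates and 3.80 CPM in wild-type sham; their part in the result was not tested.

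The response to MI in KO hearts against that in wild type was tested as an interaction. In fibroblasts the log2 fold change of MI was called lower in KO than in wild type for 10 of 36 genes (background 0.835% lower). They were Isg15, Ifit1, Rsad2, Oas1a, Ifi44, Ifi203, Gbp2, Gbp3, Cxcl10 and Rtp4. Isg15 differed by −3.67 ± 0.59 (adjusted p = 1.79e-04, edgeR), where the library levels were 3.80 CPM in wild-type sham, 49.2 and 37.7 CPM in wild-type MI, 18.6 CPM in KO sham and 13.5 CPM in KO MI. Oas1a and Ifi44 had groups with 0 UMIs, so their fitted values are no bound. Of the 10, 1 was called with DESeq2 or without doublet removal, 3 with a stricter gate and 4 without TMM scaling. In T cells Cxcl10 was called lower (−5.06 ± 1.02; background 0.559%), with the limit to few cells given above; macrophages had 0 of 36 (3 with an unadjusted p under 0.05; DESeq2 0), endothelium 0 of 36 (2; DESeq2 0) and B cells 0 of 15 (0; DESeq2 0).

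Sham hearts of both genotypes at P1 were 1 library each and were compared by ratio only. For KO sham against wild-type sham the median was 0.93 in macrophages (17 of 37 at least 2-fold higher, background 8.36%), 1.14 in monocytes (22 of 37, background 13.0%) and 0.37 in T cells. Over all genes the medians were 0.01, 0.00 and 0.15 in the same order. With genes at 0 set to the bound that 3 counts give, the monocyte median was 0.96 and the T cell median 0.19. In endothelium KO sham lay below wild type, with a median of −0.32 (all genes 0.14). There 5 of 37 genes were at least 2-fold lower (background 4.06%) and 3 at least 2-fold higher (7.99%). The macrophage median was 1.12 in macrophages with 2 or more resident markers and 0.0017 in those with fewer. KO MI against KO sham had medians of 0.99 in neutrophils (18 of 37 at least 2-fold higher, background 14.4%) and −0.02 in macrophages. In monocytes the median was −0.52 and in fibroblasts −0.46. The medians over all genes were 0.07 in neutrophils, −0.33 in macrophages, −0.20 in monocytes and −0.30 in fibroblasts. In fibroblasts 8 of 37 genes were at least 2-fold lower (background 16.4%) and 2 at least 2-fold higher (7.85%). These comparisons share wild-type P1 sham or KO sham as control. Macrophage Isg15 was at 66.7 CPM in KO sham and 92.6 CPM in KO MI, against 11.2 CPM in wild-type P1 sham.

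Whether many or few cells carried the module was read from cells thinned to 1500 UMIs each, counting those with at least 5 different genes of the module. Cells with fewer than 1500 UMIs were left out, so in shallow libraries the shares are those of the deeper cells. In 8-week sham endothelium 38.9% (36.4 to 41.3%) of cells did so (exact interval), against 4.12% (1.99 to 7.44%) in P1 sham. These shares depend on the threshold and the depth: in the same order they were 72.1% and 25.1% for at least 3 genes, 11.96% and 0% (0 to 1.51%) for at least 8, and 22.8% and 1.19% for cells thinned to 1000 UMIs. Without thinning, P1 sham was the higher of the 2, at 66.9% against 57.8%, with median depths of 11642.5 and 2321 UMIs per cell. The share was 25.7% (21.7 to 29.9%) in 8-week sham monocytes, 21.6% (18.6 to 24.8%) in neutrophils and 9.30% (7.89 to 10.9%) in fibroblasts of that library, and 0% (0 to 7.11%), 2.56% (0.0649 to 13.5%) and 0.304% (0.00770 to 1.68%) in the same classes of P1 sham. In wild-type P1 MI fibroblasts, whose summed level was above sham, the share was 1.21% (0.250 to 3.49%) in replicate 1 and 1.16% (0.806 to 1.60%) in replicate 2, and 14.5% (9.49 to 20.7%) in 8-week MI. Macrophages ranged from 4.37% (1.91 to 8.43%) in wild-type P1 sham to 16.03% (10.2 to 23.5%) in KO sham, with 12.5% (10.9 to 14.2%) in 8-week MI.

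**Figure D5:**
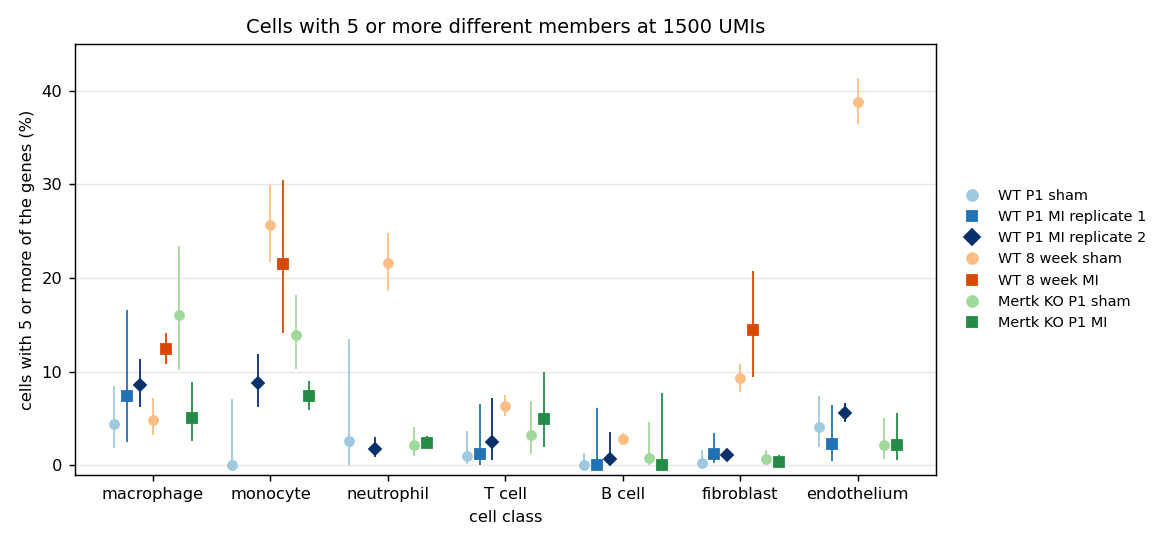
Percent of cells with at least 5 different module genes after thinning to 1500 UMIs (y axis), by class (x axis) and library (points). Cells with fewer than 1500 UMIs are left out, and bars are exact 95% intervals. Endothelium of 8-week sham is highest (38.9%), and wild-type P1 fibroblasts are at 1.21% or less.

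Module UMIs were spread unevenly over the cells. The 10% of thinned cells richest in them held 31.3% of module UMIs in 8-week sham endothelium and 30.8% in wild-type P1 sham macrophages, against 51.5% in replicate 1 fibroblasts and 45.9% in KO MI macrophages. Single cells weighed in some sums: 1 fibroblast of replicate 1 held 18.1% of the class's module UMIs (728 UMIs of 35 genes, in a cell of 181797 UMIs) and 55.5% of its Isg15. In replicate 2 fibroblasts the highest cell held 3.08%, but 59.1% of the Rsad2 UMIs lay in 1 cell. In KO MI macrophages 1 cell held 14.5% of the class's module UMIs, with 32 of 37 genes detected in its 12086 UMIs. Most cells of the P1 fibroblast class held few module UMIs: 46.2% of thinned fibroblasts of replicate 2 had no module UMI at all, against 60.8% in P1 sham.

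The wider pathway was counted from a list of 38 other genes. In the classes used, interferon transcripts themselves were rare: Ifnb1 had at most 11 UMIs in any class and library (replicate 2 fibroblasts). Among these classes Ifng was found mainly in T cells, at 8.75 CPM in P1 sham and 21.7 CPM in 8-week sham. These counts leave out the NK cells and dendritic cells that were set aside, so they say nothing of interferon transcripts there. None of the receptor genes was called in P1 MI macrophages against sham, with Ifnar1 at 89.4 CPM in sham and 78.4 and 69.3 CPM in MI, Ifnar2 at 195, 193 and 202 CPM and Ifngr1 at 223, 263 and 273 CPM.

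No pathway gene was called in P1 MI against sham in any of the 5 tested classes. In fibroblasts of P1 MI against 8-week MI, 7 of 26 were called higher (background 9.92%) and 1 lower (6.41%), namely Jak1, Irf1, Irf2, Irf8, Socs1, Socs3, Ifnar2 and Tmem173, of which Tmem173 (STING) was lower. In KO MI against wild-type MI fibroblasts, 4 of 26 were called higher (background 5.22%) and 3 lower (4.47%): Ptpn6, Ifnar2, Tmem173 and Jak2 were higher and Irf1, Socs1 and Socs3, which are early response genes and feedback inhibitors, were lower. Irf1 fell from 113 and 149 CPM in wild-type MI to 31.4 CPM in KO MI, and in endothelium from 329 and 389 to 96.6 CPM. In macrophages Irf1 was the 1 pathway gene called (of 26, background 4.14% higher) between the ages after MI, at 117 and 79.9 CPM in P1 MI and 19.2 CPM in 8-week MI.

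Of the 14 genes called in P1 MI fibroblasts that had a promoter window, 10 held an ISRE, against 9 of the 15 not called. In macrophages of P1 MI against 8-week MI the counts were 7 of 9 and 12 of 20, and the median log2 ratio was −0.15 over the 19 genes with an ISRE and −1.60 over the 10 without. Neither difference was tested. Some genes cannot be told from near copies: 58.1% of the 98-base words near the 3′ end of Ifi211 and 41.2% of those of Oas1a also occur in other genes, and 20.3%, 17.4% and 4.71% for Herc6, Trim30a and Ifit3, so their counts are uncertain.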

How the data were processed

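The authors deposited UMI counts per gene and cell barcode for 7 single-cell libraries (10x 3′ chemistry v3 or v3.1). Reads were counted with Cell Ranger 4.0.0 (5 libraries) or 6.1.0 (2 libraries) against GRCm38 (mm10), per the submitters' processing notes and design text. Whole barcode matrices held 44318 barcodes.

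Cells needed at least 500 UMIs and 300 genes, with mitochondrial UMIs at 15% or less, and the cells with the highest Scrublet scores (0.8% per 1000 barcodes) were removed because its automatic threshold marked 0 to 216 cells per library; 36645 cells remained. Classes were gated on 12 markers each, and raw counts were summed per class and library with at least 30 cells. edgeR 4.0.16 (R 4.3.3) with TMM scaling, filterByExpr and the quasi-likelihood test was fitted over all genes of a class with Benjamini-Hochberg adjustment; the spread comes from the 2 wild-type P1 MI libraries (1 residual degree of freedom), whose variability is carried over to groups with 1 library. The SE is the log2 fold change over the square root of F. DESeq2 1.42.0, python 3.11.15 and scanpy 1.11.5 served the alternatives. Comparisons of 1 library with 1 give log2 ratios with exact 95% intervals for counting error only, and UMIs of 0 allow up to 3 counts. The scripts were tested on simulated data.

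The genes and lists were chosen with earlier results of these data known. Named genes were 17 always shown, every called gene and, in each class and comparison, up to 4 further with the largest ratio at 50 CPM or more and 30 UMIs or more. The 2 MI replicates of a class differed beyond counting noise (chi-square per degree of freedom of 5.32 to 40.3). Variation between cells also enters this value, so it cannot tell whether the 2 libraries came from separate hearts. The labels give no batch.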

Additional observations from a re-analysis of the deposited data

Results flagged for a closer look

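The results below are those where 2 responses to MI differed by the interaction test itself (adjusted p under 0.05 and at least 2-fold, quasi-likelihood test of edgeR, Benjamini-Hochberg adjusted). Values are differences between log2 fold changes, and no cause was tested.

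Between the ages, the P1 response minus the 8-week response was positive for 10 genes in fibroblasts: Ifi203 4.46, Ifi207 3.86, Trim30a 3.66, Ifi27l2a 3.59, Parp14 3.48, Rtp4 3.44, Isg15 3.12, Gbp2 3.101, Ifit1 2.83 and Oasl2 2.56. Sham fibroblasts of the 2 ages already differed in these genes, with Ifi203 at 2.77 CPM at P1 and 82.6 CPM at 8 weeks. In macrophages the difference was −4.06 for Oas1a, which was at 15.98 CPM in P1 sham, 14.3 and 11.8 CPM in P1 MI, 8.85 CPM in 8-week sham and 106 CPM in 8-week MI.

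Between the genotypes, the KO response minus the wild-type response was negative for 10 genes in fibroblasts: Rsad2 −5.74, Rtp4 −4.83, Ifit1 −3.74, Isg15 −3.67, Gbp3 −3.28, Cxcl10 −2.86, Ifi203 −2.80, Gbp2 −2.75, Ifi44 −9.13 and Oas1a −13.67. The last 2 have groups with 0 UMIs, so their fitted values are no bound. Rtp4 was at 0.346 CPM in wild-type sham, 5.03 and 5.53 CPM in wild-type MI, 4.16 CPM in KO sham and 1.83 CPM in KO MI. In T cells the difference was −5.06 for Cxcl10, which was at 1.75 CPM in wild-type sham, 116 and 199 CPM in wild-type MI, 66.7 CPM in KO sham and 164 CPM in KO MI.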

How the results depend on the processing

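Settings changed one at a time were the tool (DESeq2), scaling, the filter on low counts, the prior, the gate, clusters in place of the gate, cell quality limits, doublet removal, the subset of genes, the macrophage split by resident markers, each wild-type P1 MI replicate left out, and, chosen after seeing the data, leaving out the cell richest in module UMIs in each library. Where a value moved, the cause was not tested.

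Fibroblast counts depended on the tool, the scaling and the cell set. The 17 genes higher in P1 MI than sham became 5 with DESeq2, 6 without TMM, 9 with the strict gate and 5 without doublet removal. The 17 lower in P1 MI than in 8-week MI became 8 with DESeq2, and the 2 higher became 1 with DESeq2, with DESeq2 size factors in edgeR or without doublet removal. The 9 lower in KO MI became 1 with DESeq2, 5 without TMM, 4 with the strict gate and 4 without doublet removal. The 10 of the age interaction became 2, 2, 3 and 2 under those 4 settings in that order, and the 10 of the genotype interaction became 1, 4, 3 and 1. In macrophages, the 12 genes lower in P1 MI than in 8-week MI became 0 with DESeq2. The 4 higher in KO MI became 0 with DESeq2, 7 with the strict gate, 1 with clusters, 7 in macrophages with 2 or more resident markers and 1 in those with fewer. The 1 of the age interaction became 0 with DESeq2, 2 without the filter, without TMM, with the strict gate or with the loose gate, and 3 in macrophages with fewer resident markers.

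Macrophage medians were small and moved. For P1 MI against P1 sham (0.23) they were 0.37 with TMM-scaled CPM, 0.36 over genes with a mean of 10 CPM, 0.094 without the richest cells, 0.40 with 2 or more resident markers and −0.11 with fewer; leaving out a replicate gave 0.20 to 0.36. For P1 MI against 8-week MI (−0.42) they were −0.80 with TMM-scaled CPM, −0.15 over genes with 10 CPM, −0.57 without Gbp2, Gbp3, Cxcl9 and Cxcl10, −0.69 without the richest cells, −0.58 with the strict gate, −0.70 with clusters and −0.84 with fewer resident markers; leaving out a replicate gave −0.84 to −0.45. For KO MI against wild-type P1 MI (0.24) they were 0.39 with TMM-scaled CPM, 0.43 with the strict gate and 0.69 with 2 or more resident markers; leaving out a replicate gave 0.16 to 0.54. For 8-week MI against sham (0.85) they were 1.15 with TMM-scaled CPM, 0.26 over genes with 10 CPM, 0.98 with the loose gate, 0.47 with clusters, 0.68 without doublet removal, 0.45 with 2 or more resident markers and 1.02 with fewer. For P1 sham against 8-week sham (−0.37) they were −0.58 with TMM-scaled CPM, −0.76 with clusters, −0.58 with 2 or more resident markers and −0.12 with fewer. For KO sham against wild-type sham (0.93) they were 0.80 with a prior of 2, 0.76 over genes with 10 CPM and also without Gbp2, Gbp3, Cxcl9 and Cxcl10, 0.75 without the richest cells, 0.70 with clusters, 1.12 with 2 or more resident markers and 0.0017 with fewer. For KO MI against KO sham (−0.02) they were 0.21 with TMM-scaled CPM, −0.18 over genes with 10 CPM, −0.34 without the richest cells, −0.19 with the loose gate and 0.24 with 2 or more resident markers. Fibroblast medians for P1 MI against 8-week MI (−1.32) were −1.67 over genes with 10 CPM, −1.70 without Gbp2, Gbp3, Cxcl9 and Cxcl10 and −1.68 to −1.06 with a replicate left out. For P1 sham against 8-week sham (−3.75) the fibroblast median was −3.16 with a prior of 2. The fibroblast median for P1 MI against P1 sham lay between 1.34 and 1.84 over all 12 settings.

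With another threshold on genes or another depth, 138 recomputed shares of cells moved beyond their counting interval and 34 did not.

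No paired analysis was possible because only wild-type P1 MI has 2 replicates and the other groups have 1 library. Leaving out a replicate also leaves no residual degrees of freedom, so those settings give values without a test. The single library per group in all but 1 group, the shallow 8-week MI library and the small classes in it limit the precision.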

Other observations

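Gbp2 was higher in every KO myeloid class than in the wild-type P1 libraries of the same class: 42.2 and 143 CPM in KO sham and MI macrophages against 4.32, 21.0 and 11.8 CPM in wild type, 199 and 200.3 CPM in monocytes against 3.76 and 24.4 CPM, and 32.7 and 186 CPM in neutrophils against 6.32 and 16.9 CPM. Ifi27l2a went the other way after MI in KO hearts, at 93.3 CPM in KO MI monocytes and 484 CPM in wild-type P1 MI replicate 2 monocytes, and at 284 CPM in KO MI macrophages against 478 and 711 CPM. Ifi207 in macrophages was lower with each condition away from wild-type P1 sham: 447 CPM there, 387 and 256 CPM in P1 MI, 258 CPM in KO sham, 144 CPM in KO MI and 89.4 and 84.3 CPM in 8-week sham and MI.

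Cells whose markers fell between macrophage and monocyte entered no class. In the libraries with over 100 such cells, their summed module level was 2160.3 CPM in wild-type P1 MI replicate 2, 2157 CPM in 8-week sham, 2674 CPM in 8-week MI and 1311 CPM in KO MI. It was 2424 CPM in KO sham (33 cells), 1097 CPM in replicate 1 (9 cells) and 660.4 CPM in P1 sham (2 cells).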
